A study of Mus musculus with 31 samples.

Results

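The genes described here are 30 genes of cholesterol synthesis and sterol response, measured by RNA-seq in mouse hippocampi with and without tauopathy and in primary mouse microglia exposed to tau fibrils or DNA. Their members were given as names and were matched by gene symbol in the microglial table and by the same Ensembl identifier in the hippocampal table. All 30 were found in both tables, among 54532 genes in microglia and 48795 in hippocampi, and all 30 passed the filter on low counts, which left 13675 genes to test in microglia and 16453 in hippocampi. They fall into 27 genes known as targets of SREBP transcription factors (the SREBP list) and 3 known as targets of LXR receptors, namely Abca1, Abcg1 and Mylip (the LXR list), and the lists are described apart. The SREBP list holds 8 genes of the path from acetyl-CoA to squalene, 10 of the path from squalene to cholesterol, 4 sterol regulators or carriers, and 5 genes of fatty acid synthesis and desaturation.

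The hippocampi came from 6 mice carrying a human P301S tau transgene and 7 non-transgenic mice (Ntg), aged 8 to 9 months and of both sexes, whose labels do not state the Cgas genotype. The microglia were grown from the cortices of mouse pups of postnatal days 1 to 3 and expanded with GM-CSF, and they were Cgas+/+ or lacked Cgas (Cgas-/-), the gene of the cytosolic DNA sensor cGAS. Cells of each genotype were given vehicle, fibrils of 0N4R tau at 2 µg/ml or herring testis DNA (HT-DNA, a cGAS agonist) at 1 µg/ml for 6 h, with 3 libraries per group. The libraries were made with a kit that reads the 3′ ends of transcripts. Levels are compared here between samples and not between genes.

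Cells make cholesterol from acetyl-CoA through mevalonate and squalene, and the genes of this path are switched on together by SREBP2 when membrane sterol is low, while SREBP1 acts mainly on genes of fatty acid synthesis. Sterol and the INSIG proteins hold SREBPs in the endoplasmic reticulum in an inactive form. Surplus cholesterol is sensed through oxysterols by LXR receptors, which raise the exporters ABCA1 and ABCG1 and the ubiquitin ligase MYLIP. Microglia take up lipid-rich debris in the brain and release its cholesterol through these exporters, and interferon signalling is known to act on sterol synthesis in macrophages.

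Total counts per library were 17037459 to 25174764 in microglia and 25953296 to 35779977 in hippocampi. Levels are given as normalised CPM, read counts scaled to the size of each library, and a gene was called when its adjusted p was under 0.05. The Cgas transcript measured 27.2, 18.8 and 23.5 CPM in the 3 Cgas+/+ vehicle libraries and 4.07, 5.47 and 5.23 in the Cgas-/- ones, and mouse Mapt, to which reads of a human tau transgene can map, was higher in P301S hippocampi (log2 fold change 0.80, SE 0.075, adjusted p = 1.22e-04). Neuron markers summed to no more than 2.95 CPM in any microglial library. The 7 homeostatic microglial markers summed to 1373 to 1413 CPM with vehicle, 1684 to 1755 with tau and 1184 to 1210 with HT-DNA in Cgas+/+ cells. Single markers moved in opposite directions. Of the 6 that could be tested, 2 rose and 2 fell with tau, with log2 fold changes from -1.89 to 0.33. With HT-DNA 1 rose and 4 fell, with log2 fold changes from -1.75 to 0.999. The tau contrast called 15.8% of tested genes higher and 12.2% lower, and the HT-DNA contrast 22.8% and 24.7%. The 7 markers summed to 710 to 723 CPM in Cgas-/- vehicle libraries. Of the 6 tested, 5 were lower there than in Cgas+/+ vehicle libraries, as were 27.3% of all tested genes. Among the 7 markers Siglech was near 0 in all 6 microglial groups, with group means of no more than 0.11 CPM. The vehicle libraries differ by genotype across much of the transcriptome, so each treatment is set against vehicle of its own genotype.

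Promoters are shown first, because the lists are defined by the factors thought to bind there. RefSeq promoters of GRCm38.p6, each 250 bases before and 50 bases after a transcription start, were matched to 22 of the 30 genes (27 promoters). No promoter was matched for Fdft1, Stard4, Sqle, Scd1, Fads1, Abcg1, Scd2 and Fdps. A sterol regulatory element spelled TCACNCCAC, searched on both strands, was found in 1.24% of all 32851 promoters of this length and among the 27 promoters only in that of Hmgcs1, the gene of HMG-CoA synthase. Its core CACNCCA, which lies inside the longer motif, was found in 18.4% of all promoters and in 20% of the 25 promoters of the SREBP list (5 genes, namely Acat2, Hmgcs1, Insig1, Msmo1 and Srebf2). The NF-Y box CCAAT was in 37.4% of all promoters and 19 of the 25, and the Sp1 box GGGCGG was in 35.7% and 20 of the 25. An LXR element spelled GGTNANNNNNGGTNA was in 0.718% of all promoters and in those of Abca1, Fasn and Srebf1, the last of which encodes SREBP1 and is, like Fasn, also known as an LXR target. Matches of letters do not show binding, and a promoter without them may still bind the factor.

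The promoters of Hmgcs1, Srebf2 and Acat2 are printed as those with the sterol element or its core in the genes of the first steps and of the regulator SREBP2, and those of Abca1, Fasn and Srebf1 as those with the LXR element. All are written 5′ to 3′ on the strand of the gene, and capitals mark the sterol element in Hmgcs1, its core in Srebf2 and Acat2 and the LXR element in the other promoters.
Hmgcs1, chr13:119690101-119690400, plus strand: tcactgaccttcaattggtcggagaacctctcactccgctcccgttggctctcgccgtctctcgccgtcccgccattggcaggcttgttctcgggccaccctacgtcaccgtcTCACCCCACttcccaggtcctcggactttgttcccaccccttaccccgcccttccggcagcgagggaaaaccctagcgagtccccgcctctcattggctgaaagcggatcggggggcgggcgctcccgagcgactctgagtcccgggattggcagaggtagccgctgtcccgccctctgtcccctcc
Srebf2, chr15:82147019-82147318, plus strand: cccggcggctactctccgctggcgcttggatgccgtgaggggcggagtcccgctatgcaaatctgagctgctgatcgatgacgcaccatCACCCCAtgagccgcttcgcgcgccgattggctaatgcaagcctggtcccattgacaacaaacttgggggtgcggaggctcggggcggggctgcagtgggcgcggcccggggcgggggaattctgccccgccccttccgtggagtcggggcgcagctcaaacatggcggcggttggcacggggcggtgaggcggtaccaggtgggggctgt
Acat2, chr17:12960676-12960975, minus strand: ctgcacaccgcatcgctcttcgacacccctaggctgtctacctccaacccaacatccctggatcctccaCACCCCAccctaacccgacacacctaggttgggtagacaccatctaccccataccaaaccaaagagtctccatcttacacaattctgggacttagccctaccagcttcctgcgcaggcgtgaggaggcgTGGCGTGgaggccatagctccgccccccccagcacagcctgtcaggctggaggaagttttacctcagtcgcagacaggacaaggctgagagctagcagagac
Abca1, chr4:53159846-53160145, minus strand: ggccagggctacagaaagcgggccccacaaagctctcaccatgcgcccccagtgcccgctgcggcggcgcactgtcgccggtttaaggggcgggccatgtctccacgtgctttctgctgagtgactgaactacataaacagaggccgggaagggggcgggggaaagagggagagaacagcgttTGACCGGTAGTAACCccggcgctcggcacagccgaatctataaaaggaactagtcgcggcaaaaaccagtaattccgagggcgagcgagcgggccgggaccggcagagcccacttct
Fasn, chr11:120824498-120824797, minus strand: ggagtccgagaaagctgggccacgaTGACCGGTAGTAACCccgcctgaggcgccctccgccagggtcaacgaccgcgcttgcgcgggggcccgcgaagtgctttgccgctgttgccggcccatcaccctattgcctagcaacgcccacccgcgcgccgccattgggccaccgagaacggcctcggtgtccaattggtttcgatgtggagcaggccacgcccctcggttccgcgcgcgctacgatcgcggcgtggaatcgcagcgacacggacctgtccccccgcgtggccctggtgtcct
Srebf1, chr11:60210422-60210721, minus strand: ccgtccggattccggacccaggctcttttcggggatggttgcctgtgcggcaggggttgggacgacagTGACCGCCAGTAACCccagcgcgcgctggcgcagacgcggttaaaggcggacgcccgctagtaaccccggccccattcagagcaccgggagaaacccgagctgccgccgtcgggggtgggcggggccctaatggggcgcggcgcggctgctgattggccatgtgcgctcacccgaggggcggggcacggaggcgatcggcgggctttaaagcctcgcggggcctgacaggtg
The LXR elements of Abca1 and Fasn have the same letters, TGACCGGTAGTAACC as read on the gene's strand, and start 67 and 225 bases before the start site. That of Srebf1 reads TGACCGCCAGTAACC and starts 182 bases before it.

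Across the 5 contrasts shown in the heat map, the SREBP list had the most called genes with HT-DNA in Cgas+/+ microglia. In that contrast 15 of its 27 genes fell and 0 rose, against 24.7% of all tested genes that fell and 22.8% that rose. The median log2 fold change of the list was -0.41, that of all tested genes was -0.031, and 24 of the 27 estimates were below 0.

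**Figure D1:**
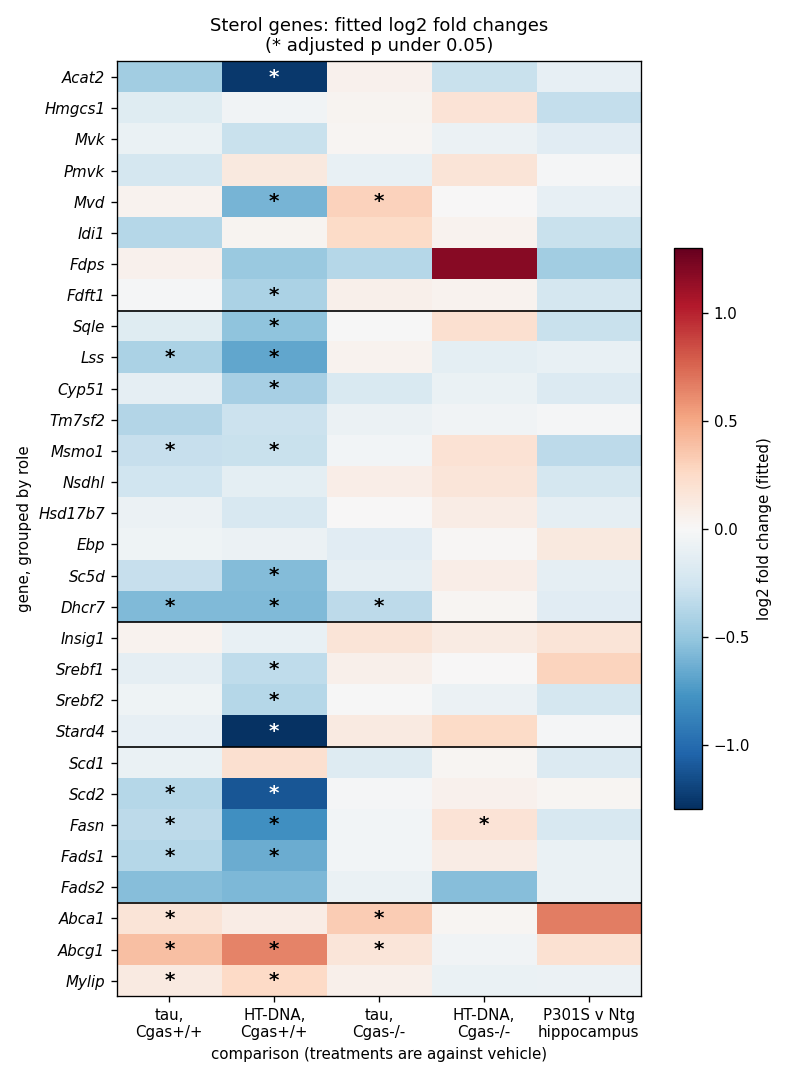
Fitted log2 fold changes of the 30 genes (rows, grouped by role, the LXR list last) in 5 contrasts (columns), with blue for lower and red for higher levels and an asterisk where the adjusted p was under 0.05. The column of HT-DNA in Cgas+/+ microglia holds 15 asterisks on blue in the SREBP list, the hippocampal column holds none, and the deepest red square, Fdps with HT-DNA in Cgas-/- cells, rests on 14 or fewer counts per library.

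HT-DNA lowered 3 of the 8 genes of the path to squalene in Cgas+/+ microglia. Acat2, the cytosolic thiolase that joins acetyl-CoA units at the entry of the path, measured 3.37, 4.59 and 4.97 CPM with vehicle and 1.58, 2.05 and 1.75 with HT-DNA. The groups did not overlap (log2 fold change -1.26, SE 0.21, adjusted p = 1.28e-05). Mvd, which decarboxylates mevalonate diphosphate, measured 16.8, 18 and 16.1 CPM with vehicle and 11.9, 11.6 and 10.05 with HT-DNA, again without overlap (log2 fold change -0.60, SE 0.094, adjusted p = 4.03e-06). Fdft1, squalene synthase, measured 8.64, 7.66 and 7.88 CPM with vehicle and 7.39, 5.22 and 5.63 with HT-DNA (log2 fold change -0.41, SE 0.14, adjusted p = 0.0145). The call of Fdft1 was lost without HT-DNA library 2 or 3 or vehicle library 1 (adjusted p = 0.1001, 0.0664 and 0.0633), and its 3′ end shares 774 exonic bases with Ctsb on the opposite strand, which rose with HT-DNA (log2 fold change 0.11).

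The promoter with the full sterol element belonged to a gene that did not pass the test. Hmgcs1, which makes HMG-CoA, measured 29.02, 34.3 and 32.5 CPM with vehicle and 31.3, 31.3 and 30.2 with HT-DNA (log2 fold change -0.046, SE 0.079, adjusted p = 0.667). The estimates for the kinases Mvk and Pmvk were -0.29 (SE 0.16) and 0.13 (SE 0.12). Idi1, an isomerase of the isoprenoid units, had 21 to 66 counts per microglial library and Fdps, which makes farnesyl diphosphate, 1 to 14. Neither passed the test, with estimates of 0.040 (SE 0.26) and -0.48 (SE 0.63), and Fdps also shares 1124 exonic bases with Gm43738 on the same strand.

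Beyond squalene, 6 of 10 genes fell with HT-DNA in Cgas+/+ cells. Lss, which closes the sterol rings as lanosterol synthase, measured 14.1, 16.01 and 13.98 CPM with vehicle and 10.2, 8.94 and 8.47 with HT-DNA (log2 fold change -0.68, SE 0.11, adjusted p = 1.01e-05). Dhcr7, the last reductase of the Kandutsch-Russell branch, measured 36.1, 37.98 and 43.8 CPM with vehicle and 25.5, 25.8 and 27.5 with HT-DNA (log2 fold change -0.58, SE 0.074, adjusted p = 2.13e-07). The libraries of the groups did not overlap for either gene. Sqle, the epoxidase that acts on squalene, measured 9.31, 8.87 and 7.12 CPM with vehicle and 5.70, 6.09 and 5.84 with HT-DNA (log2 fold change -0.53, SE 0.13, adjusted p = 0.00146). Sc5d, the lathosterol oxidase, measured 11.9, 11.03 and 12.9 CPM with vehicle and 8.53, 7.81 and 7.92 with HT-DNA (log2 fold change -0.56, SE 0.12, adjusted p = 3.35e-04). All HT-DNA libraries were below all vehicle libraries for both. Cyp51, the lanosterol demethylase, measured 10.9, 13.1 and 13.01 CPM with vehicle and 8.31, 10.1 and 8.90 with HT-DNA (log2 fold change -0.43, SE 0.11, adjusted p = 0.00173). Its 3′ end shares 166 exonic bases with Akap9 on the opposite strand, for which the estimate was 0.19. Msmo1, the oxidase that removes methyl groups from the sterol, measured 29.6, 30.97 and 30.4 CPM with vehicle and 26.1, 23.3 and 25.1 with HT-DNA, the smallest called fall of the 6 (log2 fold change -0.29, SE 0.072, adjusted p = 0.00138). The estimates for Tm7sf2, Nsdhl, Hsd17b7 and Ebp, which reduce, demethylate or isomerise the sterol, lay between -0.27 and -0.079 and did not pass the test.

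Among regulators and carriers, Stard4 showed the largest fall of the SREBP list. Stard4, a small protein that carries sterol between membranes, measured 5.85, 7.22 and 7.72 CPM with vehicle and 3.31, 2.42 and 2.79 with HT-DNA (log2 fold change -1.28, SE 0.18, adjusted p = 1.15e-06). The groups did not overlap. Srebf2, the gene of SREBP2, measured 78.7, 78.2 and 78.96 CPM with vehicle and 63.2, 60.5 and 58.8 with HT-DNA (log2 fold change -0.37, SE 0.046, adjusted p = 1.19e-07). Srebf1 measured 118, 118 and 113 CPM with vehicle and 89.9, 91.5 and 95.3 with HT-DNA (log2 fold change -0.33, SE 0.049, adjusted p = 2.12e-06). In both factors the groups did not overlap, and Srebf1 shares 109 exonic bases at its 3′ end with Rai1 on the opposite strand, whose estimate was 0.12. Insig1, which retains SREBPs in the endoplasmic reticulum, measured 33.9, 29.98 and 29.4 CPM with vehicle and 29.98, 29.4 and 27.96 with HT-DNA and did not pass the test (log2 fold change -0.097, SE 0.077, adjusted p = 0.322).

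Of the 5 genes of fatty acids, 3 fell. Scd2, the main stearoyl-CoA desaturase of brain, measured 833, 857 and 804 CPM with vehicle and 418, 364 and 369.9 with HT-DNA (log2 fold change -1.11, SE 0.052, adjusted p = 2.22e-16). Fasn, fatty acid synthase, measured 143, 144 and 148 CPM with vehicle and 87.4, 81.6 and 81.5 with HT-DNA (log2 fold change -0.80, SE 0.043, adjusted p = 5.97e-15). Fads1, a desaturase of polyunsaturated fatty acids, measured 74.5, 75.2 and 83.5 CPM with vehicle and 49.3, 50.03 and 49.05 with HT-DNA (log2 fold change -0.65, SE 0.067, adjusted p = 3.77e-09). In all 3 genes the HT-DNA libraries were below every vehicle library. Scd1, a paralog of Scd2, did not pass the test and measured 10.5, 11.1 and 10.3 CPM with vehicle and 12.2, 11.3 and 13.3 with HT-DNA (log2 fold change 0.20, SE 0.098, adjusted p = 0.0892). Under RLE scaling Scd1 was called higher (adjusted p = 0.0488). Fads2 had 16 to 80 counts per microglial library, and its estimate of -0.58 (SE 0.34) did not pass the test.

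Markers of other cell types also moved with HT-DNA in Cgas+/+ cells. Summed endothelial markers were 106 to 125 CPM with vehicle and 380 to 391 with HT-DNA. Of the 5, only 3 could be tested, and all 3 rose (Flt1, Kdr and Cdh5), while Cldn5 and Pecam1 were at group means of 0.048 and 0.52 CPM with HT-DNA. Summed oligodendrocyte markers were 114 to 119 CPM with vehicle and 176 to 202 with HT-DNA. Of the 6, 5 could be tested and 3 rose (Mag, Cnp and Cldn11), while Mog had a group mean of 0.70 CPM. Of all tested genes 22.8% rose with HT-DNA in Cgas+/+ cells. With tau the endothelial sum was 142 to 177 CPM and the oligodendrocyte sum 124 to 141. Their part in the falls of the sterol genes was not tested.

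**Figure D2:**
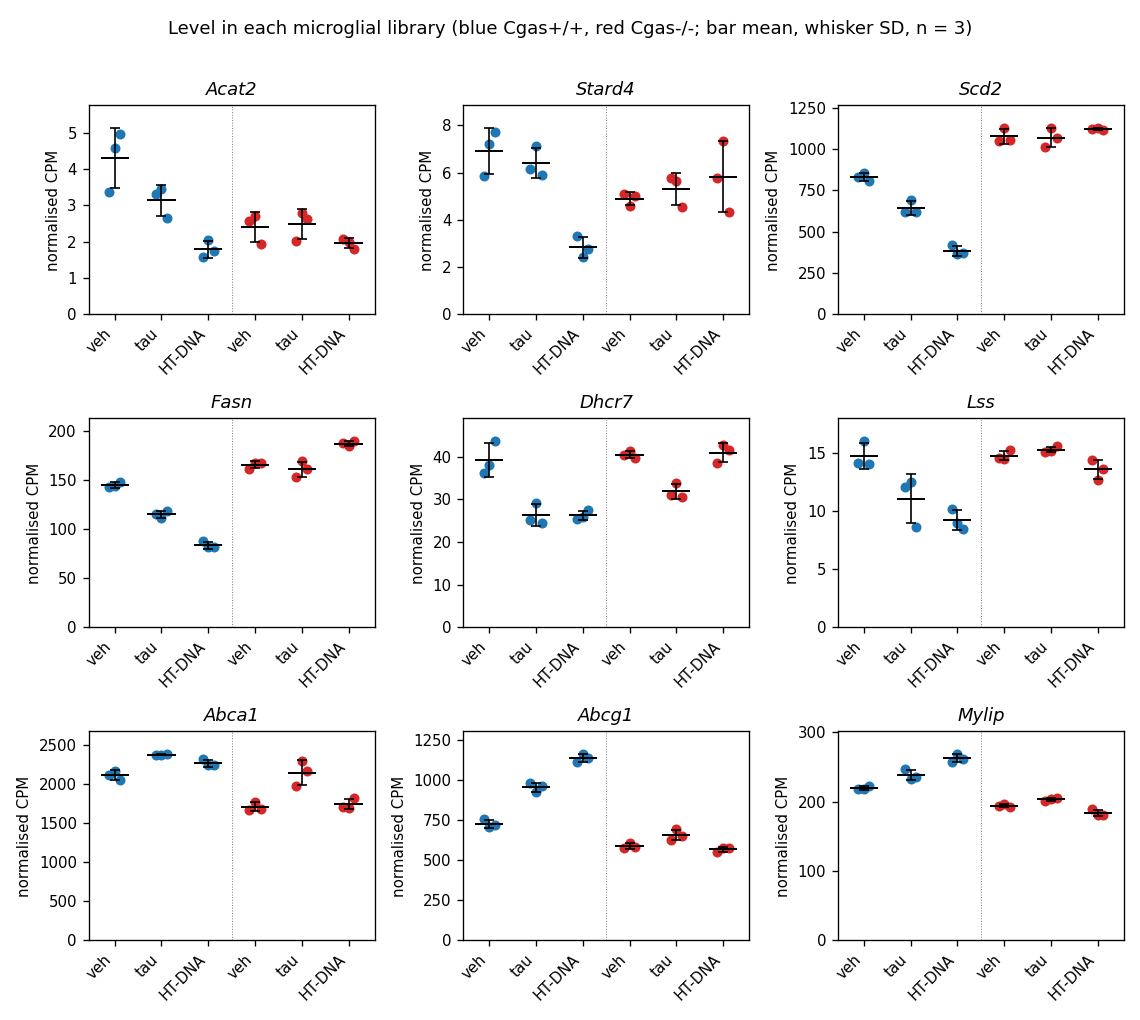
Normalised CPM (vertical axes, each from 0) of 9 genes in every microglial library of Cgas+/+ (blue) and Cgas-/- cells (red) given vehicle (veh), tau or HT-DNA, with the mean as a bar and the SD as whiskers (n = 3). In Cgas+/+ cells Scd2 and Fasn step down from vehicle to tau to HT-DNA and Abcg1 steps up, without overlap between the groups, while in Cgas-/- cells Scd2 stays between 1010.0 and 1128 CPM.

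In Cgas-/- microglia HT-DNA changed 1 gene of the SREBP list. Fasn rose from 161, 168 and 167 to 187, 184 and 189.7 CPM (log2 fold change 0.18, SE 0.041, adjusted p = 0.0252), and this call was lost in 7 of the fits that left out a library, 6 of them without a library of the groups compared. In this contrast 1.04% of all tested genes rose and 0.278% fell. The median of the list was 0.050, with all tested genes at 0.0091. Scd2, the gene with the smallest p in Cgas+/+ cells, measured 1048, 1128 and 1052 CPM with vehicle and 1121, 1124 and 1118 with HT-DNA (log2 fold change 0.059, SE 0.051, adjusted p = 0.708). Stard4 measured 5.08, 4.59 and 5.01 CPM with vehicle and 5.78, 7.34 and 4.35 with HT-DNA, with overlap between the groups (log2 fold change 0.25, SE 0.17, adjusted p = 0.589).

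Whether HT-DNA acted differently in the 2 genotypes was tested directly as an interaction, in which a positive value means a less negative or more positive response in Cgas-/- cells. It passed for 13 of the 27 genes, all positive, where 17.4% of all tested genes were called positive and 16.6% negative. These 13 were Acat2, Mvd, Sqle, Lss, Msmo1, Sc5d, Dhcr7, Srebf1, Srebf2, Stard4, Scd2, Fasn and Fads1. The largest differences were in Stard4 (1.53, SE 0.25, adjusted p = 1.54e-05), Scd2 (1.17, SE 0.072, adjusted p = 7.00e-13), Fasn (0.97, SE 0.060, adjusted p = 7.00e-13) and Acat2 (0.97, SE 0.30, adjusted p = 0.0139). Of the 15 genes that fell in Cgas+/+ cells, Fdft1 and Cyp51 did not pass this test (0.45, adjusted p = 0.0622, and 0.35, adjusted p = 0.0748). Fdft1 passed it without Cgas+/+ HT-DNA library 1 or Cgas-/- vehicle library 2 (adjusted p = 0.0123 and 0.0424), and Cyp51 without Cgas+/+ vehicle library 1, Cgas+/+ HT-DNA library 2 or Cgas-/- HT-DNA library 3 (0.0301, 0.0425 and 0.0357). Hmgcs1 passed it without Cgas+/+ vehicle library 1 or Cgas-/- vehicle library 3 (adjusted p = 0.0415 and 0.0227). The interaction uses the same vehicle and HT-DNA libraries as the contrasts within each genotype, so it is not separate evidence of the falls. The Acat2 vehicle libraries also differed by genotype, at 3.37, 4.59 and 4.97 CPM in Cgas+/+ and 2.57, 2.71 and 1.94 in Cgas-/- cells.

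**Figure D3:**
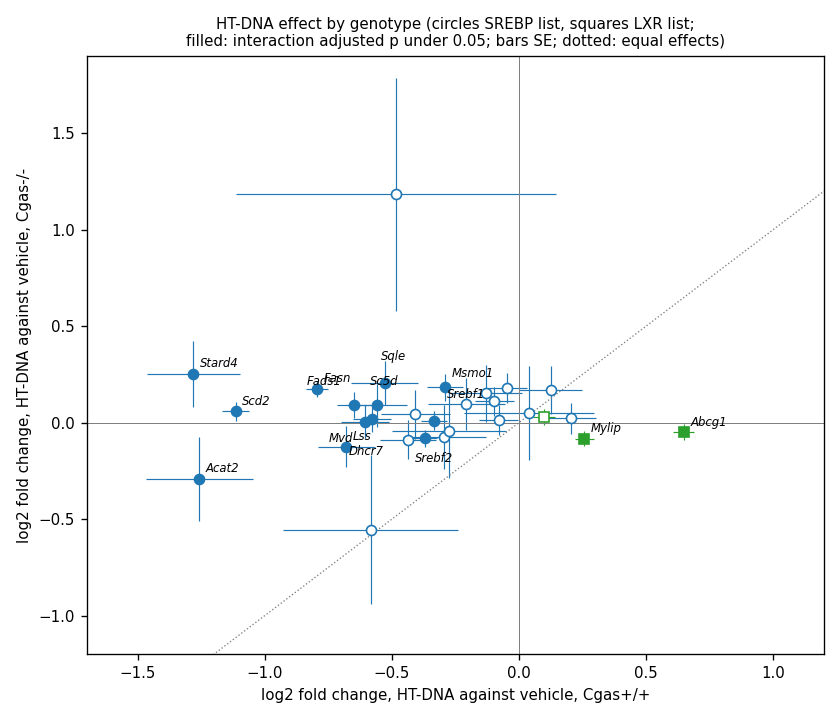
Log2 fold change with HT-DNA in Cgas+/+ (horizontal axis) and Cgas-/- microglia (vertical axis) for the 30 genes, with SE as bars, circles for the SREBP list, squares for the LXR list, filled symbols where the interaction had an adjusted p under 0.05, and a dotted line of equal effects. The filled circles lie left of 0 and between -0.29 and 0.25 on the vertical axis, and the filled squares of Abcg1 and Mylip lie right of 0.

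With tau fibrils 6 of the 27 genes of the SREBP list fell in Cgas+/+ cells and 0 rose, against 12.2% of all tested genes that fell and 15.8% that rose. The list median was -0.16, all tested genes were at -0.010, and 24 of the 27 estimates were below 0. Tau and HT-DNA are set against the same vehicle libraries, so the contrasts are not independent.

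The 6 genes were Dhcr7, Lss and Msmo1 of the sterol path and Scd2, Fasn and Fads1 of the fatty acid genes. Dhcr7 showed the largest called fall, from 36.1, 37.98 and 43.8 CPM with vehicle to 25.2, 29.3 and 24.5 with tau (log2 fold change -0.57, SE 0.074, adjusted p = 4.11e-07). Scd2 measured 618, 689 and 621 CPM with tau (log2 fold change -0.37, SE 0.051, adjusted p = 1.23e-06), Fasn 115, 112 and 118 (log2 fold change -0.34, SE 0.042, adjusted p = 2.86e-07) and Fads1 59.6, 64.3 and 56.6 (log2 fold change -0.37, SE 0.066, adjusted p = 6.27e-05). In each of these genes the tau libraries were below every vehicle library listed above. Lss measured 12.1, 12.5 and 8.60 CPM (log2 fold change -0.41, SE 0.11, adjusted p = 0.00426), and its call was lost without tau library 3 (adjusted p = 0.0660). Msmo1 measured 22.97, 24.9 and 25.9 CPM with tau (log2 fold change -0.30, SE 0.072, adjusted p = 0.00161). Sc5d missed the threshold (-0.30, SE 0.12, adjusted p = 0.0565) and passed it without vehicle library 2, tau library 3 or Cgas-/- tau library 2 (adjusted p = 0.0439, 0.0370 and 0.0264), as did Acat2 (-0.45, SE 0.19, adjusted p = 0.0871) without vehicle library 1 (adjusted p = 0.0301). None of the 8 genes of the path to squalene and none of the 4 regulators passed the test with all libraries, with Stard4 at 6.17, 7.14 and 5.91 CPM (-0.11, SE 0.16, adjusted p = 0.690) and Srebf2 at 79.8, 72.7 and 73.9 CPM (-0.060, SE 0.045, adjusted p = 0.370).

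In Cgas-/- cells tau lowered Dhcr7 as well and raised Mvd, where 5.48% of all tested genes fell and 11.2% rose. Dhcr7 measured 40.5, 41.3 and 39.7 CPM with vehicle and 31.1, 33.97 and 30.7 with tau (log2 fold change -0.34, SE 0.071, adjusted p = 6.60e-04). Mvd measured 17.9, 18.7 and 20.5 CPM with vehicle and 22.2, 23.2 and 24.8 with tau (log2 fold change 0.30, SE 0.083, adjusted p = 0.0117), and its call was lost without tau library 3 or vehicle library 1 (adjusted p = 0.0762 and 0.0753). The list median was -0.0020. The interaction of tau with genotype passed for 3 of the 27 genes, all positive, with 3.61% of all tested genes positive and 3.31% negative: Scd2 (0.36, SE 0.072, adjusted p = 0.00181), Fasn (0.30, SE 0.059, adjusted p = 0.00181) and Fads1 (0.33, SE 0.094, adjusted p = 0.0288). The call of Fads1 was lost in 6 of the fits that left out a library, with adjusted p from 0.0664 to 0.122. Without Cgas-/- tau library 1 the interaction also passed for Srebf1 (adjusted p = 0.0283), and without Cgas+/+ tau library 2 or by DESeq2 for Lss (0.0226 and 0.0478). That of Dhcr7 did not pass (0.23, SE 0.10, adjusted p = 0.198), so its response to tau was not shown to differ between the genotypes.

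Set against each other in Cgas+/+ cells, tau-treated libraries were higher than HT-DNA-treated ones in 11 of the 27 genes and lower in 2, where 17.1% and 17.8% of all tested genes were called. The widest gaps were in Stard4 (1.17, SE 0.19, adjusted p = 1.01e-05), Acat2 (0.81, SE 0.22, adjusted p = 0.00445), Scd2 (0.74, SE 0.052, adjusted p = 4.02e-12) and Mvd (0.65, SE 0.094, adjusted p = 2.57e-06). With tau Acat2 measured 3.33, 3.45 and 2.64 CPM and Mvd 18.3, 18.8 and 15.5. Dhcr7 and Msmo1, which fell with both agents, did not pass (0.0043, SE 0.078, and -0.012, SE 0.074). The 2 genes lower with tau were the kinase gene Pmvk (-0.35, SE 0.13, adjusted p = 0.0339), at 7.37, 5.96 and 8.24 CPM with tau and 9.13, 7.86 and 10.4 with HT-DNA, and Scd1 (-0.29, SE 0.10, adjusted p = 0.0228), at 10.2, 10.5 and 9.23 CPM with tau. The Pmvk call was lost without the low-count filter, with the compared groups alone, and without HT-DNA library 1 or 3 or tau library 2, and that of Scd1 without HT-DNA library 3 or tau library 3. Among the 11, Sqle lost its call by DESeq2 (adjusted p = 0.0537) and without the low-count filter (0.0514). It also did so without Cgas-/- HT-DNA library 1, any 1 Cgas+/+ HT-DNA library, or tau library 2 or 3. Cyp51 lost its call by DESeq2 (adjusted p = 0.0502) and without HT-DNA library 1 or 3 or tau library 1 or 3. Fdft1 lost its call without HT-DNA library 2 or 3 or tau library 2.

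With vehicle alone, Cgas-/- and Cgas+/+ microglia differed in both directions. Of the 27 genes, 7 were higher and 6 lower in Cgas-/- cells, close to the 24.7% and 27.3% of all tested genes that were called higher and lower, and the list median was 0.0024. Scd1 stood highest, at 10.5, 11.1 and 10.3 CPM in Cgas+/+ and 25.3, 27.5 and 22.6 in Cgas-/- cells (log2 fold change 1.24, SE 0.090, adjusted p = 3.51e-12). Sqle measured 9.31, 8.87 and 7.12 CPM in Cgas+/+ and 10.6, 10.2 and 14.3 in Cgas-/- cells (0.47, SE 0.12, adjusted p = 0.00154), and Scd2, Fasn, Cyp51, Hsd17b7 and Insig1 were also higher, by 0.19 (Fasn) to 0.46 (Hsd17b7). In Cgas-/- cells Cyp51 measured 14.96, 15.4 and 15.5 CPM and Insig1 38.01, 36.8 and 35.4, and Hsd17b7 measured 4.48, 5.45 and 5.18 CPM in Cgas+/+ and 6.75, 5.94 and 7.96 in Cgas-/- cells. Acat2 was the gene furthest below (-0.84, SE 0.20, adjusted p = 8.06e-04), followed by Tm7sf2 (-0.65), Nsdhl (-0.59), Stard4 (-0.50), Fads1 (-0.49) and Srebf1 (-0.15). Tm7sf2 measured 4.12, 4.37 and 5.50 CPM in Cgas+/+ and 2.62, 4.38 and 1.94 in Cgas-/- cells, where Fads1 measured 54.4, 59.6 and 51.7 and Srebf1 102, 104 and 109 CPM. The call of Cyp51 was lost without Cgas+/+ vehicle library 1 (adjusted p = 0.0878), that of Hsd17b7 without Cgas+/+ library 1 or Cgas-/- library 3 (0.0509 and 0.0813), and that of Srebf1 without Cgas+/+ library 1, Cgas-/- library 1 or the low-count filter (0.0520, 0.0707 and 0.0546). That of Stard4 was lost without Cgas+/+ library 3 or Cgas-/- library 2 (adjusted p = 0.0648 and 0.0521), and that of Tm7sf2 without Cgas+/+ library 3 or Cgas-/- library 1 or 3 (0.0933, 0.0721 and 0.172). Calls were also gained. Fads2 was called lower without the low-count filter and with the compared groups alone (adjusted p = 0.0430 and 0.0436). It was also called lower without Cgas+/+ library 1 or 3 or Cgas-/- tau library 3 (0.0498, 0.0486 and 0.0479). Sc5d was called higher with the compared groups alone and without Cgas-/- tau library 2 (0.0485 and 0.0475). Mvk was called lower without Cgas-/- library 2 (0.0423). Nsdhl, a dehydrogenase of sterol demethylation, measured 6.91, 7.14 and 10.04 CPM in Cgas+/+ and 5.13, 4.74 and 5.89 in Cgas-/- cells. The summed endothelial markers were 106 to 125 CPM in Cgas+/+ and 27.5 to 32.6 in Cgas-/- vehicle libraries, and the oligodendrocyte markers 114 to 119 and 70.8 to 75.4. Their part in these differences was not tested.

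The LXR list went the other way from most of the SREBP list in Cgas+/+ cells. Abcg1, which passes cholesterol to lipoprotein particles, measured 752, 706 and 716 CPM with vehicle, 978, 921 and 960.1 with tau and 1112, 1161 and 1134 with HT-DNA. It rose with tau (log2 fold change 0.39, SE 0.041, adjusted p = 9.95e-09) and with HT-DNA (log2 fold change 0.65, SE 0.041, adjusted p = 1.76e-13), and the 3 groups did not overlap. Mylip, a ubiquitin ligase that removes lipoprotein receptors, measured 219, 218 and 223 CPM with vehicle, 247, 232 and 235 with tau and 257, 269 and 261 with HT-DNA. It rose with HT-DNA (log2 fold change 0.26, SE 0.037, adjusted p = 1.42e-06) and, by a small amount, with tau (log2 fold change 0.11, SE 0.037, adjusted p = 0.0198). The tau call of Mylip was lost without the low-count filter, with the compared groups alone and without tau library 1, vehicle library 1 or vehicle library 2. Abca1, the exporter that loads cholesterol onto apolipoproteins, measured 2116, 2168 and 2050.1 CPM with vehicle and 2365, 2374 and 2384 with tau (log2 fold change 0.17, SE 0.043, adjusted p = 0.00311). With HT-DNA it measured 2314, 2238 and 2235 CPM, above every vehicle library but short of the threshold (log2 fold change 0.10, SE 0.043, adjusted p = 0.0581), and DESeq2, RLE scaling and the fit of the compared groups called it (adjusted p = 0.00883, 0.0142 and 0.0110). In all, 3 of 3 LXR genes rose with tau and 2 of 3 with HT-DNA, where 15.8% and 22.8% of all tested genes rose. Srebf1 and Fasn of the SREBP list, named above as also known LXR targets, fell with HT-DNA (log2 fold change -0.33 and -0.80).

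In Cgas-/- cells the 3 LXR genes were lower with vehicle, as were 27.3% of all tested genes, and 2 of them rose with tau, as did 11.2%. With vehicle Abca1 measured 1661, 1770.1 and 1683 CPM, Abcg1 573, 607 and 579.6 and Mylip 194, 196 and 192, each below every Cgas+/+ vehicle library, with log2 differences of -0.31, -0.31 and -0.18. Tau raised Abca1 to 1973, 2297 and 2162 CPM (log2 fold change 0.33, SE 0.043, adjusted p = 7.61e-07) and Abcg1 to 627, 691 and 649.8 CPM (log2 fold change 0.16, SE 0.041, adjusted p = 0.00556), the latter not called without tau library 2 (adjusted p = 0.0647). Mylip did not pass with tau (0.065, SE 0.037, adjusted p = 0.280). With HT-DNA none of the 3 passed the test, with estimates of 0.030, -0.050 and -0.082 and SE of 0.043, 0.041 and 0.037. The interaction with HT-DNA passed for Abcg1 (-0.70, SE 0.059, adjusted p = 1.91e-10) and Mylip (-0.34, SE 0.053, adjusted p = 8.16e-06), and that with tau for Abcg1 (-0.23, SE 0.058, adjusted p = 0.0127). For Abca1 neither interaction passed (0.16, adjusted p = 0.117, for tau and -0.070, adjusted p = 0.407, for HT-DNA), and that with tau passed without Cgas-/- tau library 1 (adjusted p = 0.00945). Tau-treated Cgas+/+ cells were below HT-DNA-treated ones in Abcg1 (-0.25, SE 0.041, adjusted p = 1.54e-05) and Mylip (-0.14, SE 0.037, adjusted p = 0.00334).

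Of 28 further genes of sterol and lipid handling, 26 could be tested in microglia, and in Cgas+/+ cells 11 rose and 10 fell with HT-DNA, where 22.8% and 24.7% of all tested genes did. With tau 5 rose and 8 fell, where 15.8% and 12.2% of all tested genes did. Ch25h, which makes an oxysterol that blocks SREBP processing and binds LXR, measured 79.2, 53.8 and 65.2 CPM with vehicle, 152, 117 and 150.2 with tau and 189.8, 196 and 198 with HT-DNA. It rose with tau (log2 fold change 1.08, SE 0.089, adjusted p = 1.14e-10) and with HT-DNA (log2 fold change 1.56, SE 0.089, adjusted p = 1.51e-14), without overlap of either group with vehicle. In Cgas-/- cells Ch25h measured 79.2, 86.99 and 86.3 CPM with vehicle, 136, 128 and 127 with tau, which passed the test, and 100.2, 105 and 102 with HT-DNA, which did not (0.28, SE 0.089, adjusted p = 0.138).

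The 11 rises with HT-DNA in Cgas+/+ cells included Plin2, a coat protein of lipid droplets (1.14, SE 0.045, adjusted p = 9.31e-18), Nceh1, an esterase of stored cholesterol (0.89, SE 0.037, adjusted p = 2.68e-17), Npc2 and Lipa of the lysosome (0.45 and 0.29), and Soat1, which esterifies cholesterol (0.16). The others were Acss2 (0.69, SE 0.16, adjusted p = 6.71e-04), Acaca, the carboxylase that commits acetyl-CoA to fatty acids (0.19, SE 0.063, adjusted p = 0.0134), Cyp27a1 (0.39), Mbtps2 (0.21) and Nr1h2 (0.13), beside Ch25h. With tau Plin2, Nceh1 and Soat1 fell by 0.17, 0.13 and 0.16 on the log2 scale instead, Nr1h3, Npc2 and Lipa rose (0.53, 0.20 and 0.13), and Elovl5, Rxra, Lpcat3 and Mbtps1 fell (-0.34, -0.28, -0.15 and -0.15). Lpin1, a phosphatidate phosphatase and known SREBP target, fell with both, from 16.04, 16.4 and 19 CPM to 7.64, 10.2 and 8.92 with tau and 5.21, 3.82 and 4.04 with HT-DNA (-1.97, SE 0.13, adjusted p = 1.59e-13). Further falls with HT-DNA were in Aacs (-0.57), Gpam (-0.53), Tmem97 (-0.41), Elovl5 (-0.31), Elovl6 (-1.17), Rxra (-0.38), Mbtps1 (-0.19), Scap (-0.15) and Pltp (-0.14). Acss2, a maker of acetyl-CoA from acetate, rose with tau in both genotypes, to 17.95, 19.7 and 21.4 CPM from 10.1, 6.45 and 7.61 in Cgas+/+ cells and to 10.01, 8.34 and 10.3 from 1.45, 2.03 and 2.24 in Cgas-/- cells (1.29, SE 0.15, adjusted p = 1.03e-07, and 2.30, SE 0.20, adjusted p = 6.19e-10). In Cgas-/- cells 4 of the 26 rose with tau (Acss2, Ch25h, Lipa and Npc2) and 4 fell (Nceh1, Soat1, Elovl5 and Plin2), where 11.2% and 5.48% of all tested genes did. With HT-DNA 0 of the 26 passed the test in these cells, in a contrast that called 1.04% of tested genes higher and 0.278% lower. Between the genotypes with vehicle, 9 of the 26 were higher in Cgas-/- cells, with Acaca furthest (1.10, SE 0.061, adjusted p = 9.59e-15), and 9 lower, with Acss2 furthest (-2.05, SE 0.21, adjusted p = 3.43e-09). The genotype contrast called 24.7% of tested genes higher and 27.3% lower.

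Hippocampi of P301S mice differed among themselves in markers of glia, and this is given before the sterol genes. The 7 pan-microglia and macrophage markers summed to 161 to 204 CPM in the Ntg mice, and in the P301S mice to 1022 (mouse 29), 906 (36), 197 (43), 231 (63), 1057 (65) and 438 (77). Mouse 43 thus lay within the Ntg range and mouse 63 close above it. Of these markers 6 of 7 rose in P301S hippocampi, as did 4 of 7 disease-associated microglial markers and, among 7 astrocyte markers, Gfap (log2 fold change 2.22, SE 0.37, adjusted p = 0.0206). Of all tested genes 1.39% were called higher. In Mapt every P301S mouse, mouse 43 among them, was above every Ntg mouse. The sums of oligodendrocyte markers were 2695 to 5657 CPM in Ntg and 3665 to 6539 in P301S mice, none of the 6 passed the test, and those of neurons were 7248 to 9739 and 6382 to 9078. In whole hippocampi, fewer cells of a type and less RNA per cell cannot be told apart.

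None of the 27 SREBP-list genes passed the test between P301S and Ntg hippocampi, with 1.39% of tested genes called higher and 0.122% called lower. At an unadjusted p under 0.05 there were 7 of these 27 genes and 2612 of the 16453 tested, and DESeq2 also called 0 of the 27. The list median was -0.12, all tested genes were at 0.0013, and 23 of the 27 estimates were below 0. The estimate was lowest for Fdps (log2 fold change -0.45, SE 0.21, adjusted p = 0.315), and next for Msmo1, whose lowest, median and highest levels were 74.02, 85.5 and 98.2 CPM in Ntg and 52.5, 63.8 and 87.3 in P301S mice (log2 fold change -0.34, SE 0.11, adjusted p = 0.132). Hmgcs1 ranged over 191, 267 and 298 CPM in Ntg and 158, 215 and 245 in P301S mice, with overlap (log2 fold change -0.31, SE 0.12, adjusted p = 0.206).

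**Figure D4:**
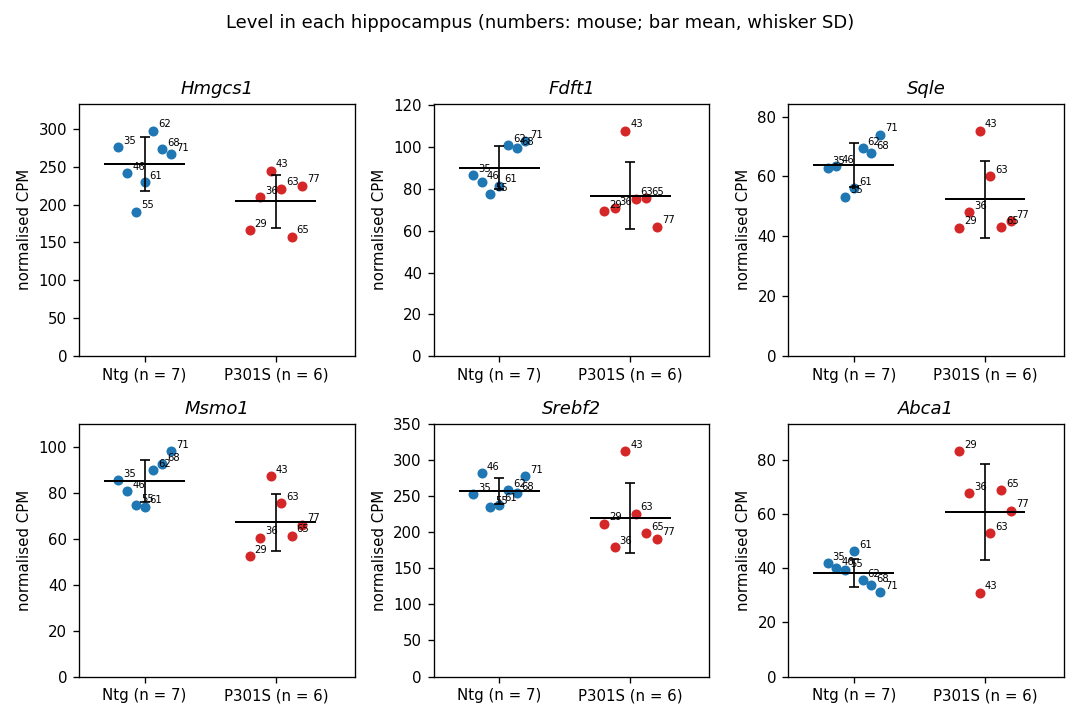
Normalised CPM (vertical axes, each from 0) of 6 genes in each hippocampus of Ntg (blue, n = 7) and P301S mice (red, n = 6), with mouse numbers, the mean as a bar and the SD as whiskers. Mouse 43 is the highest P301S mouse in the 5 genes of sterol synthesis and regulation and the lowest in Abca1.

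Mouse 43 was the P301S mouse with the highest level in Fdft1, Sqle, Msmo1, Srebf2 and Hmgcs1. Sqle measured 42.9, 48.1, 75.3, 60.01, 43.1 and 45.04 CPM in mice 29, 36, 43, 63, 65 and 77, against 53.2, 63.5 and 73.99 (lowest, median and highest) in Ntg mice. Srebf2 measured 212, 179.8, 313, 226, 198 and 191 CPM in the same order, against 235, 255 and 282. In both genes mice 29, 36, 65 and 77 were below every Ntg mouse, as was mouse 63 in Srebf2, and mouse 43 was above every one. Fdft1 measured 69.5, 70.9, 108, 75.4, 75.6 and 61.9 CPM, against 77.5, 86.5 and 103. All but mouse 43 were below every Ntg mouse in this gene.

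Counted over the list, 14 to 17 of the 27 genes were below the Ntg range in mice 29, 36, 65 and 77, where 19.7% to 24.3% of all tested genes were below it. In mouse 43, 1 gene was below and 11 were above the Ntg range, with 21.4% and 19.4% of all tested genes, and in mouse 63 there were 5 on either side, with 17.8% and 19%. The mean log2 level of the list was 5.59 to 5.79 in Ntg mice, 5.86 in mouse 43, 5.69 in mouse 63, and 5.43 to 5.47 in mice 29, 36, 65 and 77. The 4 mice with the lower means were the 4 with the highest sums of microglial markers. They were also the 4 with the highest sums of the 7 astrocyte markers, at 5746 to 7440 CPM, against 3664 to 4444 in Ntg mice, 3744 in mouse 43 and 4069 in mouse 63. Of these 7 astrocyte markers only Gfap was called higher in P301S hippocampi (log2 fold change 2.22), where 1.39% of all tested genes were. The median estimate of the 7 was 0.35. The part of either cell type in the level of the SREBP list was not tested.

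**Figure D5:**
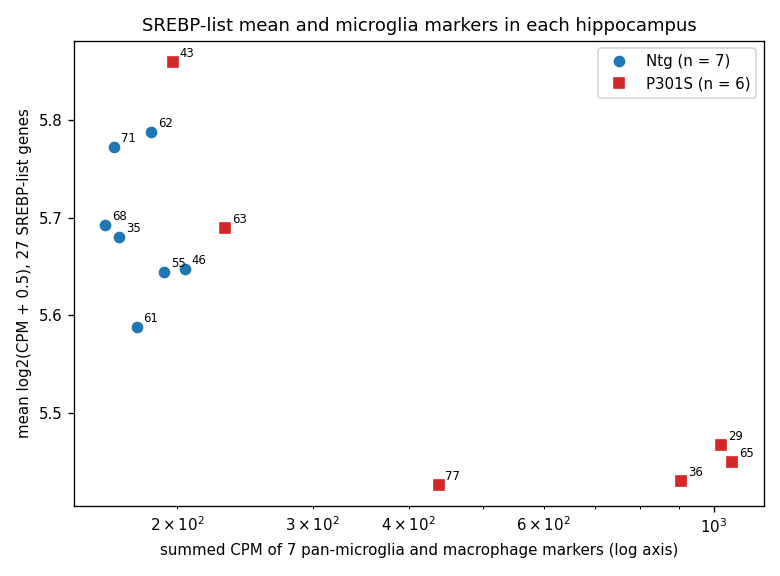
Mean log2(CPM + 0.5) of the 27 SREBP-list genes (vertical axis) against the summed CPM of 7 pan-microglia and macrophage markers (horizontal log axis) in each Ntg (circles, n = 7) and P301S hippocampus (squares, n = 6), with mouse numbers. P301S mice 29, 36, 65 and 77 lie at the lower right, and mice 43 and 63 lie among or above the Ntg mice at the upper left.

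Each mouse was also left out in turn, and without mouse 43 the calls changed. Without it 4 of the 27 genes were lower in P301S hippocampi, where 1.18% of all tested genes were lower and 4.53% higher: Fdft1 (log2 fold change -0.35, SE 0.087, adjusted p = 0.0295), Sqle (log2 fold change -0.42, SE 0.10, adjusted p = 0.0304), Msmo1 (log2 fold change -0.43, SE 0.097, adjusted p = 0.0194) and Srebf2 (log2 fold change -0.35, SE 0.071, adjusted p = 0.0112). Leaving out any of the other 12 mice gave 0 calls in the SREBP list, as did sex or the level of homeostatic microglial markers as a covariate. Fdft1 overlaps Ctsb on the opposite strand, as given above, for which the estimate with all mice was 0.52 (adjusted p = 0.0615).

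The genes with estimates above 0 in hippocampi were Srebf1, Insig1, Ebp and Scd2. Srebf1 ranged over 64.97, 66.6 and 83.3 CPM in Ntg and 67.4, 84.2 and 108 in P301S mice (log2 fold change 0.29, SE 0.10, adjusted p = 0.159). Insig1 reached 80.5 CPM in mouse 43 and was 39.3 to 58.7 in Ntg mice (log2 fold change 0.16, SE 0.14, adjusted p = 0.640). Scd2, which had the smallest p with HT-DNA in Cgas+/+ microglia, was 1548 to 1663 CPM in Ntg and 1559.9 to 1699 in P301S mice (log2 fold change 0.023, SE 0.052, adjusted p = 0.890). The estimates for Fasn and Fads1 were -0.21 (SE 0.087) and -0.091 (SE 0.047).

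Of the LXR list, Abca1 had the largest hippocampal estimate of all 30 genes. It measured 83.4, 67.9, 31.03, 53.1, 68.9 and 61.4 CPM in P301S mice 29, 36, 43, 63, 65 and 77, and 31.2, 39.3 and 46.3 (lowest, median and highest) in Ntg mice. Mice 29, 36, 63, 65 and 77 were above every Ntg mouse, and mouse 43 was below every one. The difference missed the threshold (log2 fold change 0.67, SE 0.17, adjusted p = 0.0640) and passed it by DESeq2 (adjusted p = 0.00735, where 4.24% of all tested genes were higher), without mouse 43 (log2 fold change 0.80, SE 0.11, adjusted p = 0.00155) and without mouse 63 (adjusted p = 0.0460). Abcg1 was 68.6 to 82.8 CPM in Ntg and 77.03 to 97.8 in P301S mice (log2 fold change 0.20, SE 0.068, adjusted p = 0.153), and Mylip was 16.8 to 25.5 and 16.1 to 27.3 (log2 fold change -0.078, SE 0.13, adjusted p = 0.834). Among the further lipid genes, 27 of 28 could be tested in hippocampi, and Plin2 alone was called, where 1.39% of all tested genes were called higher. It was 4.29 to 6.61 CPM in Ntg and 4.91 to 10.4 in P301S mice, with overlap (log2 fold change 0.68, SE 0.16, adjusted p = 0.0488), and mouse 43 was at 4.91. The further lipid genes were not put through the alternative fits.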

How the data were processed

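RNA-seq was measured in 13 hippocampal and 18 microglial libraries (groups of 7, 6 and 6 times 3), and samples were assigned to groups from their labels. The authors deposited raw read counts per gene, not normalized, 1 column per library. Labels give total RNA and a Lexogen QuantSeq 3′ FWD kit. The submitters' processing notes name GRCm38, edgeR and limma, and the aligner, counting tool and use of strand are not given in the sources used here, so that genes overlapping on opposite strands may share reads. Columns with the authors' own statistics are absent from the tables used, and 0 columns were left unmapped.

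Counts were fitted with edgeR 4.0.16 in R 4.3.3 (TMM scaling, filterByExpr, quasi-likelihood F test), with all 18 microglial or all 13 hippocampal libraries in a fit, no covariate and Benjamini-Hochberg adjustment over all tested genes. Calls had an adjusted p under 0.05 at any fold, since sterol genes change by small folds. Log2 fold changes have SEs from the fit, CPM use TMM-scaled library sizes, and mean log2 levels add 0.5 CPM. Alternatives were DESeq2 1.42.0, RLE scaling, no filter, a minimum log2 fold change of 1 (microglia) or 0.5 (hippocampi), only the compared groups, a replicate block, sex or homeostatic markers as covariates, and each library left out. The code was tested on simulated data. No 2 replicates agreed within sampling noise.

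The 30 genes, the 28 further lipid genes (named when called against vehicle or between hippocampi, and otherwise counted) and the marker lists were chosen with earlier results of these data known, and 1 oligodendrocyte marker is not reported here and was left out of its list. Values in every library are given for genes of the 30 that were called against vehicle or between genotypes, and the others by estimate, range or count. The study describes the microglial samples as biologically independent, and the labels do not say that the 3 libraries of a group came from separate cultures. If they did not, p-values measure the spread between these libraries, which may be technical. The replicate numbers did not pair the libraries. Depth is the total count per library, 17037459 to 35779977. Counting intervals are not given, since each value has replicates. Promoters are RefSeq's (GRCm38.p6), and overlaps of exons are from GENCODE M21 (GRCm38).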

Additional observations from a re-analysis of the deposited data

Results flagged for a closer look

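In 3 of the 60 groups of hippocampal values tested, 1 mouse stood apart from the rest of its group by Dixon's 95% criterion, and chance alone gives about 1 in 20 groups. Fdft1 was 107.9 CPM in P301S mouse 43, with the next mouse at 75.6. Srebf2 was 312.7 CPM in the same mouse, with the next at 225.9. Lss was 28.6 CPM in Ntg mouse 68, with the nearest mouse at 32.4.

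The response to HT-DNA differed between Cgas-/- and Cgas+/+ microglia by the interaction test in 15 of the 30 genes. Of all tested genes 17.4% were called positive and 16.6% negative. The differences in log2 fold change (Cgas-/- minus Cgas+/+) were 0.97 for Acat2, 0.61 for Mvd, 0.73 for Sqle, 0.55 for Lss, 0.48 for Msmo1, 0.65 for Sc5d and 0.60 for Dhcr7. They were 0.34 for Srebf1, 0.29 for Srebf2, 1.53 for Stard4, 1.17 for Scd2, 0.97 for Fasn and 0.74 for Fads1, and -0.70 for Abcg1 and -0.34 for Mylip among the LXR targets. The response to tau differed in 4 genes, with 0.36 for Scd2, 0.30 for Fasn, 0.33 for Fads1 and -0.23 for Abcg1. For tau, 3.61% of all tested genes were called positive and 3.31% negative.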

How the results depend on the processing

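No gene of the 30 called in the main fit changed direction under an alternative. Uncalled estimates, among them all those of the 30 genes in hippocampi, were not checked in this way. For genes called with HT-DNA, 345 of 345 interaction values and 391 of 408 values in Cgas+/+ cells kept their side of the threshold, as did 201 of 216 for tau in Cgas+/+ cells, 89 of 96 for tau and 16 of 24 for HT-DNA in Cgas-/- cells, 358 of 384 between the genotypes, 323 of 360 for tau against HT-DNA and 86 of 92 tau interactions. These shares are not like for like, since the interactions were not put through the minimum fold change, which 57 of 62 other calls did not reach. The replicate block kept 81 of 81 calls, and same-numbered libraries did not deviate together (median correlation 1.09e-05 over 45 pairs, 1 of them above 0.1). DESeq2 called 4.24% of all tested genes higher in P301S hippocampi (1.39% in edgeR) and 1 LXR gene higher (0 in edgeR).

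With a minimum fold change, 3 genes of the SREBP list fell with HT-DNA in Cgas+/+ cells (15 without it), 1 was higher in Cgas-/- cells with vehicle (7) and 1 higher with tau than with HT-DNA (11). The share of all tested genes that reached the minimum is not given, so these counts cannot be set against it. That minimum left 0 falls with tau (6), 0 falls and 0 rises with tau in Cgas-/- cells, 0 rises with HT-DNA in Cgas-/- cells, 0 genes lower in Cgas-/- cells with vehicle (6), 0 lower with tau than with HT-DNA (2), and 0 LXR genes in any contrast. RLE scaling gave 1 SREBP-list rise with HT-DNA in Cgas+/+ cells (0). For tau below HT-DNA, no filter or only the compared groups gave 1 gene (2). Without the filter 11.8% of genes were higher and 12% lower between the genotypes, over more genes tested.

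Leaving out each library gave 14 to 15 falls of the SREBP list with HT-DNA in Cgas+/+ cells and 13 to 15 HT-DNA interactions. It also gave 6 to 7 falls with tau and 8 to 11 genes higher with tau than with HT-DNA in those cells. It gave 0 to 4 falls in P301S hippocampi (4 without mouse 43), 0 to 1 LXR rises there, 0 to 1 SREBP-list rises with HT-DNA in either genotype, 0 to 2 rises with tau in Cgas-/- cells, 1 to 2 LXR rises with tau in Cgas-/- cells, 0 to 2 genes lower with tau than with HT-DNA, and 0 to 1 positive LXR interactions with tau. The causes were not tested. Depth limits Fdps in microglia, at 14 or fewer counts per library, where its estimate with HT-DNA in Cgas+/+ cells had an SE of 0.63.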
